A study of Mus musculus with 20 samples.

Results

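The cytosolic ribosomal protein genes, which encode the protein parts of the ribosomes that translate nuclear mRNAs, were examined for ATF4 peaks in C2C12 mouse myoblasts. The genes were taken by symbol: every protein-coding gene named Rpl or Rps followed by a protein number, with the stalk genes Rplp0 to Rplp2, Rpsa and paralogs such as Rpl22l1. The rule found 84 of 21631 protein-coding genes (chromosomes 1 to 19 and X), 53 of the large and 31 of the small subunit. The cells were of wild-type genotype and received either DMSO, the solvent, or 100 nM thapsigargin for 6 h. Thapsigargin inhibits calcium uptake into the endoplasmic reticulum (ER) and causes ER stress. CUT&Tag, in which an antibody directs a transposase to a chromatin protein so that the adjoining DNA is tagged for sequencing, was done for 5 targets in both treatments with 2 replicates each, 20 samples in all. The results rest on the authors' ATF4 peak lists, 803 peaks in DMSO and 8619 in thapsigargin, and the other 8 groups were not used here. Each list stands for its condition as a whole, so no replicate error could be given. The depth of the libraries is unknown, and whether it, or the calling threshold, differed between the lists was not tested. The lists hold ATF4 sites alone, so the myoblast label could not be checked against marker genes.

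A ribosome is built from ribosomal RNA and about equal amounts of many different proteins, and the genes of these proteins are among the most strongly transcribed in growing cells. Their mRNAs start with a run of pyrimidines, the terminal oligopyrimidine (TOP) tract, through which mTORC1 signalling sets their translation. ATF4, a bZIP transcription factor, is made when phosphorylation of eIF2 slows general translation, and it is known for binding genes of amino acid supply and tRNA charging. It binds DNA as a dimer, often with a C/EBP partner, at a composite element named CARE or at related cAMP response elements (CRE).

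In thapsigargin, 23 of the 84 ribosomal protein genes (27.4%, 95% Wilson interval 19% to 37.7%) were marked, meaning that the centre of an ATF4 peak lay no more than 1 kb from either end of the gene. Of all protein-coding genes, 15.1% were. In DMSO a single member, Rpl13a, had such a peak (1.19%, interval 0.21% to 6.44%), which is close to the 1.29% of all protein-coding genes. The large subunit held most of the marked genes, 18 of 53 (34.0%, interval 22.7% to 47.4%). In the small subunit 5 of 31 were marked (16.1%, interval 7.09% to 32.6%), a share near that of all genes. The intervals treat genes as independent draws and cover counting error only. Those of the subunits overlap, which does not decide whether the subunits differ. Ribosomal protein genes are short, with a median length of 3.17 kb against 17.4 kb for other protein-coding genes, and 83 of the 84 span under 10 kb. Of all protein-coding genes under 10 kb, 10.6% had a thapsigargin peak at an end, and of the 7658 that are not members, 0.992% had a DMSO peak there.

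Promoter sequences of 4 marked genes are shown because the thapsigargin peak covers their start. They were ordered by a DMSO peak (none had one), then by a match to CARE or CRE, then by peak width. Each runs in the direction of the gene from 250 bases before the listed start to 20 bases from it, taken from RefSeq on GRCm38.p6. Capitals mark matches on either strand to CRE (TGACGTCA), its shorter core (TGACG), the YY1 letters GCCATNTT and the ETS letters CCGGAAG. Rpl26 lies at chr11:68901316-68901585 on the plus strand, Rpl41 at chr10:128549149-128549418 on the minus strand, Rpl15 at chr14:18270967-18271236 on the minus strand and Rpl10 at chrX:74270566-74270835 on the plus strand.
Rpl26: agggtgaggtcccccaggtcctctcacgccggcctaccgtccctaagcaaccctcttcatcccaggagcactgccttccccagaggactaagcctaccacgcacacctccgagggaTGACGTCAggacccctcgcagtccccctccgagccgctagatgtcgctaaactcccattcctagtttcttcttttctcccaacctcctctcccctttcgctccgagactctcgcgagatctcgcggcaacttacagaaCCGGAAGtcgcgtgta
Rpl41: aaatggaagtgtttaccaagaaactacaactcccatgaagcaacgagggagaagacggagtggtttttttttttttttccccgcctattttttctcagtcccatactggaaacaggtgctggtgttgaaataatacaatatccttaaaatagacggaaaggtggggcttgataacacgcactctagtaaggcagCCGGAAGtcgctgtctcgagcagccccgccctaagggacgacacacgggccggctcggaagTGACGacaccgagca
Rpl15: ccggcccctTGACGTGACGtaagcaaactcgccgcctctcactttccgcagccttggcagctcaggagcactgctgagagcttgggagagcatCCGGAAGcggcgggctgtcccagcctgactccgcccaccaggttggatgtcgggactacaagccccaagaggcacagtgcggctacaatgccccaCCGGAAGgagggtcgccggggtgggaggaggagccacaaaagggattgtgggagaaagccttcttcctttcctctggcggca
Rpl10: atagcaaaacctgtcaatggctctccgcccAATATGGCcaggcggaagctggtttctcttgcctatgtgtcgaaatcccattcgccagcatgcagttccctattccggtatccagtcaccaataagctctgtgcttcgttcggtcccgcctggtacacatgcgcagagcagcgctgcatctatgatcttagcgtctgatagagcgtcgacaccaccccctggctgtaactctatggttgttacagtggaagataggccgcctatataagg

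The 18 marked genes of the large subunit included Rpl3, Rpl5, Rpl7, Rpl7a, Rpl9, Rpl10, Rpl13a, Rpl15, Rpl21, Rpl22l1, Rpl23, Rpl24, Rpl26, Rpl30, Rpl36, Rpl36al and Rpl41. Rpl41 encodes the smallest ribosomal protein and had the widest peak, at 2218 bp (chromosome 10, 128547093 to 128549310), in the 98.8th percentile of the thapsigargin list by width. That peak covered the whole gene (128548110 to 128549168), and its centre lay 91.5 bp from the gene end opposite the start, next to an end of Zc3h10. The peak of Rpl30 measured 1428 bp, that of Rpl15 measured 1393 bp and that of Rpl10, whose protein joins the large subunit late in its assembly, measured 1320 bp. Narrower peaks were found at Rpl23 with 1208 bp, Rpl9 with 1183 bp and Rpl13a with 1148 bp.

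The narrowest peaks at large subunit genes were those of Rpl5 (580 bp), Rpl3 (591 bp), Rpl21 (688 bp) and Rpl22l1 (746 bp). Rpl3 lies near the peptidyl transferase centre of the ribosome. Rpl5 binds the 5S ribosomal RNA together with Rpl11, and this particle can hold the p53 ligase Mdm2. Its partner gene was not marked: the nearest thapsigargin peak to Rpl11 was centred 63.2 kb away. Rpl24, whose protein forms a bridge to the small subunit, was the only member with separate thapsigargin peaks at its ends. One was 980 bp wide and centred 5.5 bp from the start (chromosome 16, 55965791 to 55966770), and the other was 911 bp wide and centred 855 bp from the opposite end.

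Rpl13a, on chromosome 7 from 45125563 to 45128745, was the only member with an ATF4 peak at an end in both conditions. Its protein has a second role outside the ribosome in silencing the translation of inflammatory mRNAs. The DMSO peak (45129125 to 45129631, 507 bp) was centred 633 bp upstream of the gene's start, and the thapsigargin peak (45128899 to 45130046, 1148 bp) 727.5 bp upstream. The DMSO peak lay wholly inside the thapsigargin peak, which was 2.26 times as wide. Neither covered the start itself, and neither centre lay within 500 bp of it. The DMSO peak was narrow for its list, in the 10.1th percentile by width.

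Of the small subunit, the 5 marked genes included Rps13, Rps19 and Rps27a. Rps27a encodes a fusion of ubiquitin with a ribosomal protein, and its peak was the widest of the 5, at 1410 bp. The peak of Rps13 was 1116 bp wide. Rps19, the gene most often mutated in Diamond-Blackfan anaemia, had a peak of 816 bp. All 5 peaks covered the gene end, and the centre lay 270.5 bp from it at Rps13, 276.5 bp at Rps27a and 366.5 bp at Rps19. Rps6, the substrate of the S6 kinases, was among the genes farthest from any thapsigargin peak, at 230.0 kb, and Rpsa, also known as the laminin receptor, was at 114.0 kb.

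**Figure D1:**
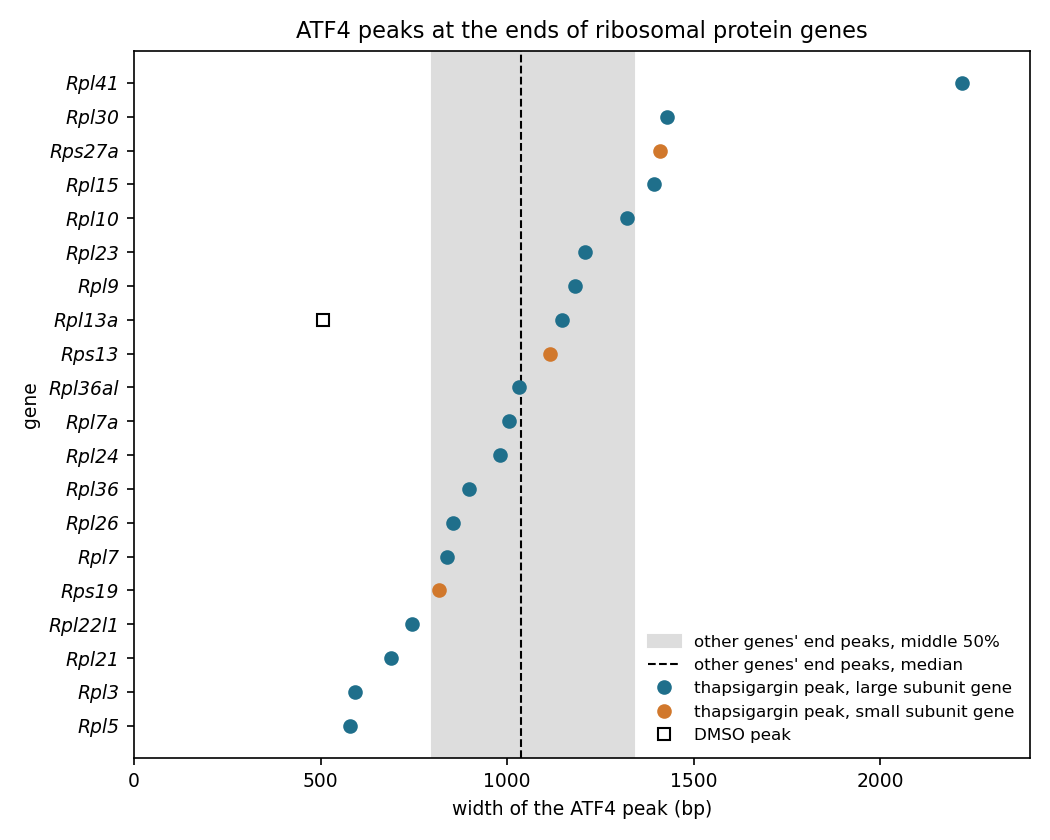
Width in bp of the thapsigargin ATF4 peak nearest each of 20 of the 23 marked ribosomal protein genes, coloured by subunit, with the DMSO peak of Rpl13a as an open square. The band and dashed line give the middle 50% and the median (1036 bp) of end peaks at other protein-coding genes, and 9 of the 20 shown lie above that median.

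Peak widths at ribosomal protein genes had nearly the same median as those at other genes. The 23 had a median of 1032 bp and ranged from 580 to 2218 bp, and the thapsigargin peaks at ends of 3244 other protein-coding genes had a median of 1036 bp and ranged from 286 to 2766 bp. In the large subunit the median was 1018 bp (n = 18), and in the small subunit 1078 bp (n = 5). Of the 23, 11 were above the median of the other genes, and the plot of widths by gene shows 20 of the 23. Each of the 23 genes had a nearest peak of its own. The files give no peak height, and width is not a measure of occupancy.

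Most of these peaks sat tightly on the gene end. The centre was within 500 bp of it at 22 of the 23 genes, with a median distance of 270.5 bp, and at 82.6% of the other marked genes, with a median of 227.5 bp. At 21 of the 23 the peak covered the end itself. The exceptions were Rpl13a and Rpl3, whose peak stopped just inside the gene. The centre lay inside the gene at 9 members and outside it at 14. At 7 of the 23 (30.4%) the same peak was also centred within 1 kb of an end of another protein-coding gene, against 34.0% of the other marked genes. These neighbours were Nkiras1 at Rpl15, Micos13 at Rpl36, Mgat2 at Rpl36al, Zc3h10 at Rpl41, Med22 at Rpl7a, Lias at Rpl9 and Clhc1 at Rps27a, and at those sites the lists do not tell which gene a peak belongs to.

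The gene table gives no strand, but a listed start with its strand could be matched for 64 of the 84 members. Of these, 15 (23.4%) had a thapsigargin peak centred within 1 kb of a listed start, as did 16.4% of all protein-coding genes with such an entry and 10.1% of the other genes under 10 kb. For 14 of the 15 (93.3%) the peak covered the start, against 87.1% of the other genes with a peak at a listed start. Rpl13a was the exception. Centres lay upstream of the start at 9 and downstream at 6, with a median offset of -165.5 bp, where the other genes had a median of 1.0 bp. Both small subunit genes in this set, Rps13 and Rps19, had their centres upstream, at -270.5 and -366.5 bp. At the far end of the range stood Rpl41 with a centre 966.5 bp downstream, and the span of its peak ran from -142 to 2075 bp.

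**Figure D2:**
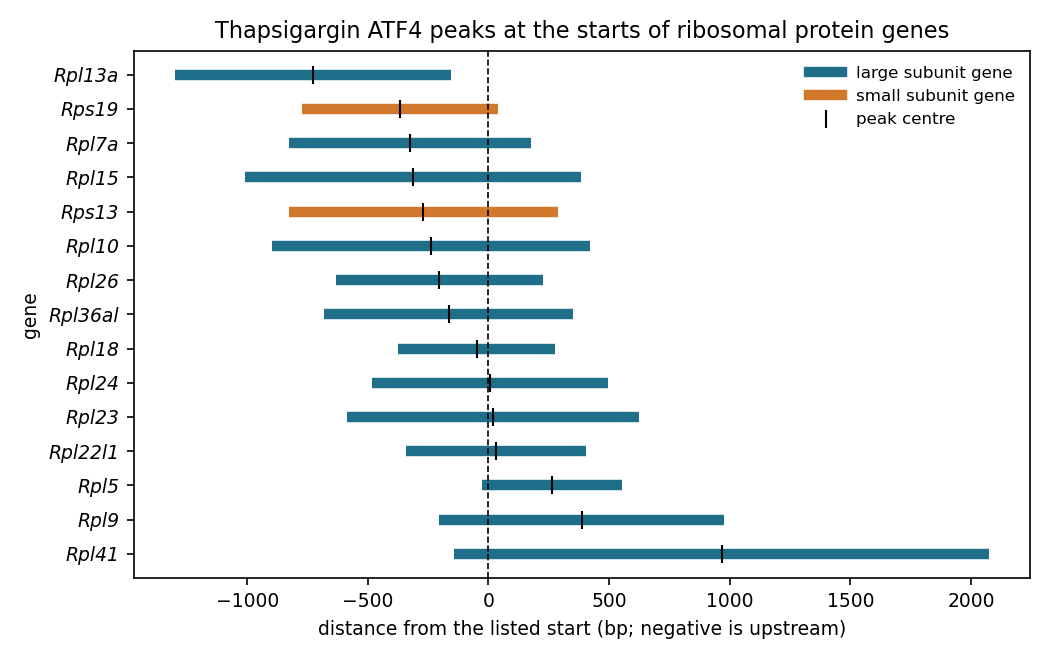
Span of the thapsigargin ATF4 peak (bars) and its centre (ticks) in bp from the listed start, negative upstream, for the 15 ribosomal protein genes with a peak centred within 1 kb of a listed start. The bars of 14 genes cross the start, and that of Rpl13a ends at -154 bp.

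Inside gene bodies, meaning centred in the gene but over 1 kb from both ends, a single ribosomal protein gene (1.19%) had a thapsigargin peak. The share was 10.1% of all protein-coding genes, but 0.992% of the other genes under 10 kb, close to that of the members. This was Rpl18, where a peak of 652 bp was centred 2.56 kb from the nearer gene end. That peak nevertheless covered a start listed for Rpl18 within the gene span, with its centre at -48.5 bp from that start. Counting listed starts as well as ends thus brings the marked members to 24. The same peak was also centred within 1 kb of an end of Sphk2, so the lists do not tell which gene it belongs to. In DMSO no member had a body peak, against 1.3% of all protein-coding genes and 0.144% of the other genes under 10 kb. Only 70 of the 84 members exceed 2 kb and so have room for such a peak.

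Within 10 kb, 32 of the 84 members (38.1%) had a thapsigargin peak inside them or near an end, against 30.5% of all protein-coding genes and 18.9% of the other genes under 10 kb. The 9 that were added included Rpl17 (2.38 kb from the peak centre), Rpl18, Rpl23a (2.89 kb), Rpl3l (3.69 kb), Rps2 (2.2 kb), Rpl35 (6.3 kb), Rps29 (9.67 kb) and Rpl10a (9.82 kb). Some of these rest on a peak that lies at an end of another gene. Rps2 and its neighbour Rpl3l shared a peak of 606 bp at an end of Ndufb10, a gene of respiratory complex I. In DMSO 2 members (2.38%) had a peak within 10 kb, Rpl13a among them, against 3.56% of all protein-coding genes and 2.02% of the other genes under 10 kb.

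The remaining 52 members had no thapsigargin peak within 10 kb. Between 10 and 20 kb were 9 of them, namely Rpl12, Rpl22, Rpl27, Rpl28, Rpl29, Rpl34, Rpl36a, Rps9 and Rps15a. Over 100 kb away were 22, among them Rpl4, Rpl6, Rpl8, Rpl14, Rpl19, Rps3, Rps7, Rps20, Rps23, Rps24, Rps25 and Rps4x. Within 100 kb of an end, 73.8% of members and 64.0% of other protein-coding genes had a peak. None of the 3 genes of the lateral stalk, through which elongation factors reach the ribosome, had a peak within 10 kb. Rplp0 was at 67.2 kb, Rplp2 at 89.4 kb and Rplp1 at 103.0 kb. Most genes had none that near, with a peak inside or within 10 kb at 30.5% of all protein-coding genes. Over all members the median distance to the nearest thapsigargin peak was 21.6 kb, with 16.2 kb in the large and 58.4 kb in the small subunit. It was 49.8 kb for other protein-coding genes and 84.0 kb for those of them under 10 kb. For the nearest DMSO peak the medians were 342 kb for members, 847 kb for other genes and 959 kb for those under 10 kb.

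**Figure D3:**
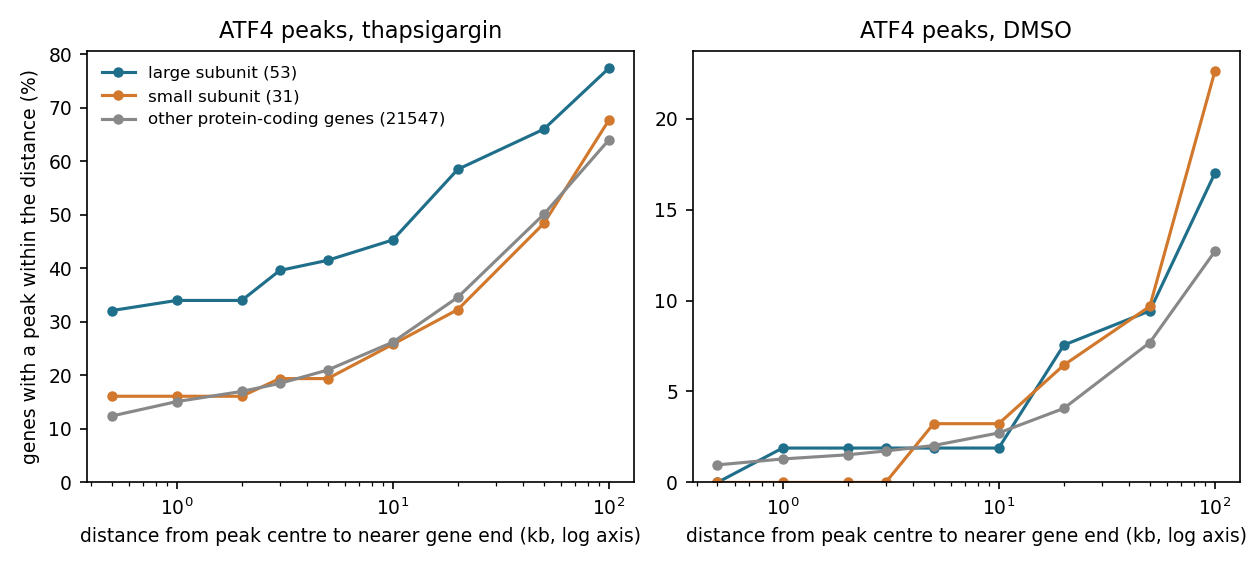
Share of genes, in percent, with an ATF4 peak centred within a given distance (kb, log axis) of the nearer gene end, in thapsigargin (left) and DMSO (right, on a smaller vertical scale), for 53 large subunit genes, 31 small subunit genes and 21547 other protein-coding genes. In thapsigargin the large subunit lies above the other genes at each distance, from 32.1% against 12.4% at 500 bp to 77.4% against 64.0% at 100 kb, and the small subunit runs close to them.

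The gap between large subunit and other genes in thapsigargin was present at the shortest distance. Within 500 bp the large subunit reached 32.1%, the small subunit 16.1% and other genes 12.4%. Between 1 and 2 kb no further member was added, and the other genes rose from 15.1% to 17.0%. Within 3 kb the members reached 27 of 84 (32.1%) and the other genes 18.5%. Within 10 kb the shares were 45.3% in the large subunit, 25.8% in the small subunit and 26.2% of other genes. The difference between the subunits was not tested, since genes are not replicates of a condition.

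Paralogs of the canonical proteins gave a mixed picture. Of the 8 members of this kind, Rpl22l1 and Rpl36al were marked in thapsigargin, at widths of 746 and 1032 bp, while the genes they resemble, Rpl22 and Rpl36a, had their nearest peaks 11.4 and 12.7 kb away. The reverse held for Rpl3 and Rpl10, which were marked, and their tissue-restricted relatives Rpl3l, made in striated muscle, and Rpl10l, made in the testis, which were not. The nearest peak to Rpl10l was 1210 kb away. Rps27l and Rps27 were 76.0 and 133.0 kb from a peak. Among the 76 canonical members 21 (27.6%) were marked.

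Of the ribosomal proteins encoded under other symbols, Fau, whose product is a ubiquitin-like protein fused to a small subunit protein, had a thapsigargin peak of 1244 bp centred 199.5 bp from its end, shared with the mitochondrial ribosomal protein gene Mrpl49. Rps3a1, of the small subunit, had its nearest peak at 81.5 kb. Rack1, a signalling scaffold on the small subunit, had its nearest peak at 11.5 kb. None of these 3 had a DMSO peak within 100 kb.

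Ribosomal protein genes are known hosts of small nucleolar RNAs (snoRNAs), which lie in their introns and guide the modification of ribosomal RNA. A snoRNA gene lay inside 29 of the 84 members (34.5%) in the gene table, against 1.59% of other protein-coding genes. Of the 29 hosts, 11 (37.9%) were marked in thapsigargin, among them Rpl7a and Rpl13a with 4 snoRNA genes each. Of the 55 members without a snoRNA gene, 12 (21.8%) were marked. Among other protein-coding genes the shares were 23.6% of 343 hosts and 14.9% of the rest.

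Motifs were counted in the 64 matched members, on both strands, from 250 bases before to 50 bases after each listed start. A gene was counted once if the window of any of its listed starts held a match, and some genes have several. CARE, searched as TGATGNAAN, was in none of the 64, and in 3.95% of 17210 other protein-coding genes. Of those other genes, it was in 4.51% of the ones marked at an end and 3.84% of the rest. CRE was in 5 of the 64 (7.81%), against 2.56% of other genes, and these were Rpl13, Rpl18, Rpl26, Rpl27a and Rps9. It was in 1 of the 14 matched members marked at an end and 4 of the 50 others. Among other protein-coding genes it was in 5.33% of those marked and 2.04% of the rest. Of the 5, Rpl26 was the only one with a peak at a gene end. Its CRE, seen in the sequence printed above, runs from -134 to -127 with the listed start as 0, within a peak that spans -631 to 224 bp. In Rpl18 the CRE runs from -79 to -72 of the start under its body peak, which is also near an end of Sphk2. Rpl13 and Rpl27a carry the same letters with the nearest thapsigargin peaks at 36.9 and 24.0 kb, and Rps9 at 10.5 kb.

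The shorter CRE core, which every CRE match also contains, was in 31 of the 64 members (48.4%), against 26.4% of other genes. It was in 8 of the 14 matched members marked at an end (57.1%), namely Rpl9, Rpl13a, Rpl15, Rpl22l1, Rpl23, Rpl26, Rpl41 and Rps13, and in 23 of the 50 others (46.0%). Among other protein-coding genes it was in 43.8% of those marked at an end and in 23.3% of the rest. Rpl15 shows the core as a direct repeat from -241 to -232, in capitals near the left of its printed sequence. The YY1 letters were in 13 of the 64 members (20.3%) against 7.48% of other genes, and the ETS letters in 25 (39.1%) against 13.0%. Of the matched members marked in thapsigargin, 5 of 14 (35.7%) held the YY1 letters and 3 of 14 (21.4%) the ETS letters, and of those not marked 8 of 50 (16.0%) and 22 of 50 (44.0%). Among other protein-coding genes the YY1 letters were in 11.0% of those marked and 6.83% of the rest, and the ETS letters in 22.1% and 11.3%. The ETS share was thus higher in marked genes outside the ribosomal protein set and lower in marked members, where it rests on 3 genes. The GC box (GGGCGG) was in 39 members (60.9%) against 49.8% of other genes, and the TATA box (TATAAA) in 8 (12.5%) against 14.9%. A run of C or T over the first 5 bases from a listed start, as in a TOP tract, was found in 17 of the 64 (26.6%) and in 4.61% of other genes. Of those 17, Rpl7a and Rpl15 were marked. The run was in 14.3% of the 14 matched members marked at an end and in 30.0% of the 50 others. Among other protein-coding genes it was in 4.51% of those marked and 4.63% of the rest. These counts need starts that are exact to the base, which was not tested for the listed starts. A match says that the letters are in the window and not that a factor binds there.

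Other genes around the ribosome were counted in the same way. Of 78 mitochondrial ribosomal protein genes, which serve the separate ribosomes of mitochondria, 24 (30.8%) were marked in thapsigargin and 2 in DMSO, with the widest peaks at Mrpl54 (2462 bp), Mrpl34 (1763 bp), Mrpl13 (1722 bp) and Mrpl58 (1459 bp). Of 57 genes of ribosome biogenesis 23 (40.4%) were marked in thapsigargin and 2 in DMSO, led in width by Brix1 (1917 bp), Mdn1 (1565 bp), Ncl (1531 bp), the gene of nucleolin, and Nop14 (1478 bp). Of 20 genes of ribosome quality control and eIF2 signalling 7 (35.0%) were marked in thapsigargin and none in DMSO, with Ascc2 (1476 bp), Abce1 (1172 bp), Eif2ak3 (1138 bp), the gene of the ER stress kinase PERK, and Gigyf2 (1098 bp). Other genes with TOP mRNAs were marked at 11 of 20 (55.0%) in thapsigargin and at 1 in DMSO, with Eif3e (1489 bp), Hnrnpa1 (1454 bp), Eef1a1 (1443 bp) and Tpt1 (1364 bp).

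The cytosolic aminoacyl-tRNA synthetases, a group of known ATF4 targets, were marked at 13 of 20 in thapsigargin (65.0%) and already at 12 of 20 in DMSO (60.0%), with a median width of 1402 bp in thapsigargin. The cytosolic ribosomal protein genes had the lowest share in thapsigargin of the 6 lists compared, 27.4%. The interval of that share reaches 37.7%, and the shares of the other lists have counting error of their own. In DMSO 1 of 84 was marked. The lists were not matched for gene length. In thapsigargin 15.1% of all protein-coding genes and 10.6% of those under 10 kb were marked. The differences between lists were not tested.

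**Figure D4:**
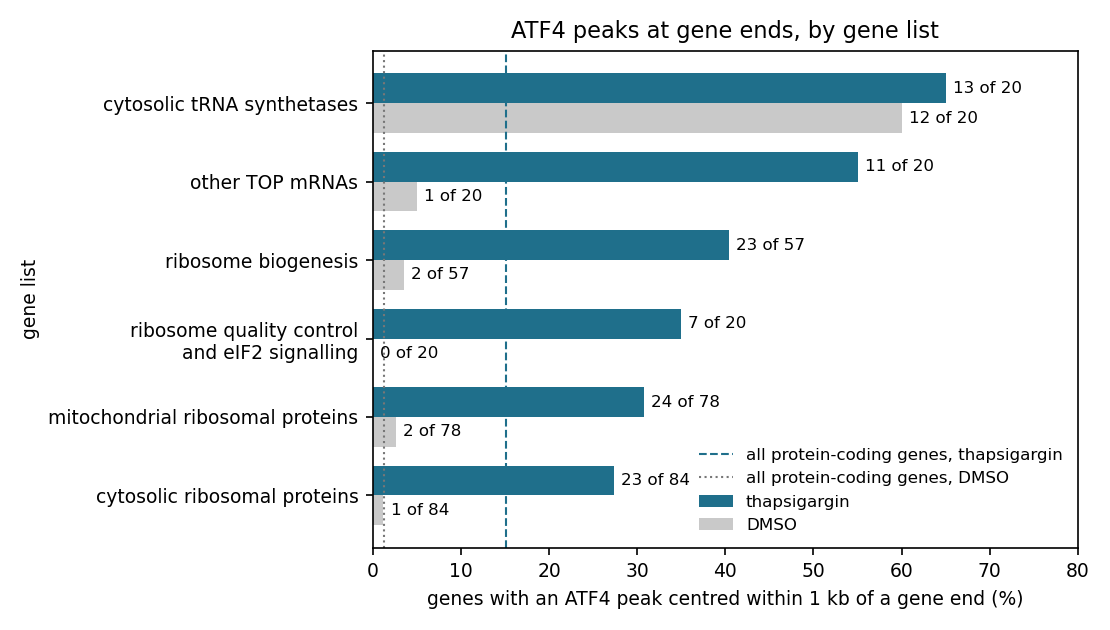
Share of genes, in percent, marked by an ATF4 peak centre no more than 1 kb from either end, in thapsigargin (dark bars) and DMSO (light bars) for 6 gene lists, with counts beside the bars. Dashed and dotted lines mark all protein-coding genes at 15.1% in thapsigargin and 1.29% in DMSO, and the cytosolic ribosomal protein genes have 23 of 84 and 1 of 84.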

How the data were processed

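CUT&Tag in C2C12 cells was described per the labels. For each treatment the authors deposited a list of ATF4 peaks that gives chromosome, start and end in bp, without height or significance. The submitters' processing notes name MACS2 2.2.7.1, Trim Galore 0.6.10, Bowtie2 and mm10, with no order of steps. Peak threshold, control library and replicate handling were not given in the sources used here.

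Gene spans came from a RefSeq table of GRCm38.p6, to which mm10 corresponds. It gives no strand or exons. Starts, strands and promoter sequences came from a RefSeq promoter table of the same build, which matched 64 of 84 members. Printed coordinates count from 1. A gene counted as marked when the centre of a peak was at most 1 kb from its start or its far end. A body peak was centred inside a gene and over 1 kb from both ends.

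The members, lists and motifs were chosen with earlier results of these data known. Values were given for members marked in DMSO, the 12 widest and the 4 narrowest peaks in thapsigargin, and up to 4 genes by width in each other list. Rps3a1, Fau, Rpsa, Rplp0 and Rack1 were named in any case, and further members by their role after their values were seen. Some genes that fall under this rule are not reported here by name, and counts include them. No test was run, since each condition has a single list and genes are not replicates. Intervals are 95% Wilson intervals. The software was matplotlib 3.10.9, scipy 1.17.1, pandas 2.3.3 and numpy 2.4.6 under Python 3.11.15. The assignment of peaks to genes was tested on simulated data. Alternatives were other windows, the peak edge, peaks covering an end, the wider part of each list, listed starts alone, and other member sets.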

Additional observations from a re-analysis of the deposited data

How the results depend on the processing

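No paired analysis was possible because a treatment is represented by 1 peak list alone, which also leaves no replicate to take out. Of the 33 alternative values, 26 stayed within 1.5 times the main count or, for the median width, within the spread of the members' widths. The median width could hardly leave that spread, because its alternatives use largely the same peaks. The 23 members marked in thapsigargin became 22 within 500 bp, 27 within 3 kb, 28 within 5 kb and 32 within 10 kb. They became 11 (13.1%, against 7.54% of other genes) with the wider part of the list, which holds fewer peaks, and 15 of 64 with listed starts alone, which cover fewer genes. The single member marked in DMSO became 0 within 500 bp, 0 with peaks that cover a gene end and 0 with the wider part of the list, and 2 within 5 kb and 2 within 10 kb. Within 500 bp, within 3 kb, with peaks that cover an end and without paralogs, the small subunit count was 5 to 6 and the large subunit count 16 to 21. Within 10 kb they were 8 and 24, and with listed starts alone 2 of 23 and 13 of 41. The median width ranged from 980 to 1032 bp. With the lists' depth unknown, a gene without a peak cannot be called unbound.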

Other observations

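The mouse genome holds many processed copies of ribosomal protein genes. Of 324 pseudogenes named for a ribosomal protein, 2 (0.617%) had a thapsigargin peak centred inside them or within 1 kb of an end, Rpl6l and Rpl15-ps1. Of 10004 other pseudogenes 82 (0.82%) did.

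Another protein-coding gene ended or began within 1 kb of a gene end at 31 of the 84 members (36.9%) and at 25% of other protein-coding genes.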
